A study of Mus musculus with 2 samples.

Results

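Early differentiating neurons were examined in whole mouse embryos at embryonic day 9.5. Droplet-based single-cell RNA sequencing counts of unique molecular identifiers (UMIs), each marking 1 captured RNA molecule read near its 3′ end, were available for 1 wild-type library and 1 library from embryos with a germline CRISPR/Cas9 deletion in Usb1 (Usb1-null). A cell was kept when 200 to 6000 genes were detected, and it was selected as a neuron on its measured counts when at least 3 of 10 neuronal marker genes (Elavl3, Elavl4, Tubb3, Dcx, Stmn2, Nhlh1, Nhlh2, Onecut2, Gap43 and Neurod1) had a UMI. This rule found 268 of 28179 cells, 157 of 15161 in the wild-type and 111 of 13018 in the Usb1-null library. The deletion is in every cell of the null embryos, which came from crosses of heterozygous parents. The paper describes the Usb1-null embryos as markedly smaller than wild-type ones at this day. How many embryos were pooled and at which somite stage was not found in the labels or methods. With 1 library per genotype there was no replicate check and no test, and every interval below is a 95% interval for counting error only.

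Usb1 encodes the nuclease that trims the oligouridine tail of U6 small nuclear RNA, and the study followed embryos that lack it. Neurons arise when dividing neuroepithelial cells of the neural tube, or of the cranial placodes and neural crest, leave the cell cycle. Proneural basic helix-loop-helix (bHLH) factors such as the neurogenins start this step and raise Notch ligands on the newborn cell. NeuroD and Nhlh factors, Elav-like RNA-binding proteins, the neuronal tubulin Tubb3 and the microtubule proteins Dcx and Stmn2 then mark the young neuron. At this stage motor neurons of the hindbrain and spinal cord, sensory neurons of the cranial ganglia and the earliest forebrain and midbrain neurons are among the first to appear.

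bHLH factors bind the E-box, CANNTG, and the promoters of a few of the genes described below are shown so that these letters can be seen beside the genes. Each is the 300 bases from 250 before to 50 after the start of the gene, 5′ to 3′ on the strand of the gene, from RefSeq on GRCm38.p6, with every CANNTG in capitals. Elavl3 (chr9:22051974-22052273, minus strand) encodes a neuronal RNA-binding protein, Nhlh1 (chr1:172057547-172057846, minus strand) and Nhlh2 (chr3:102009895-102010194, plus strand) are bHLH factors of newborn neurons, and Srrm4 (chr5:116591768-116592067, minus strand) encodes a splicing factor for neuronal microexons.
Elavl3: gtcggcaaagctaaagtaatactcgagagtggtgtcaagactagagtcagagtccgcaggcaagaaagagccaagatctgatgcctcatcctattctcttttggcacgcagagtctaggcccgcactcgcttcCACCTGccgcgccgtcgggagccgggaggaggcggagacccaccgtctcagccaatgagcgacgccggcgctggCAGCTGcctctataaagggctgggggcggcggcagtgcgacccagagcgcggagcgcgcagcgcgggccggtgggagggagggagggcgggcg
Nhlh1: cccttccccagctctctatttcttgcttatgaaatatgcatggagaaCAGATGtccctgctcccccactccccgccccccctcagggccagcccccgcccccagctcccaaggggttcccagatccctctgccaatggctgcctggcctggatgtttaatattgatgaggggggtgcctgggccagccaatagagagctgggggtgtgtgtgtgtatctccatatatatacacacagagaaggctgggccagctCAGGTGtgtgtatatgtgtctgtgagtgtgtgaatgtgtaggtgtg
Nhlh2: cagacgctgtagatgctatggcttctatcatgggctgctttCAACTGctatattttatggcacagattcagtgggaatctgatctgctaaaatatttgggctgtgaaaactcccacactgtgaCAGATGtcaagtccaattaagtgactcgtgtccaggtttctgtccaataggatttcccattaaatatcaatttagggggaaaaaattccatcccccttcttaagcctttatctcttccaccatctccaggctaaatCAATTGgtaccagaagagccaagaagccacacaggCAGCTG
Srrm4: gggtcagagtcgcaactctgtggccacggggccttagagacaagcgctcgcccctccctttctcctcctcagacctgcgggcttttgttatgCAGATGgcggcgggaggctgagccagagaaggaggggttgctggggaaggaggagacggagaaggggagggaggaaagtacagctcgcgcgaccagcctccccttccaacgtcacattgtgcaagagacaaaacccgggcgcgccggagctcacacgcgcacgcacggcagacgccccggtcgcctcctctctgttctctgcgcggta

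CANNTG reads the same on both strands and occurred in 72.3% of all 32851 promoters of this length. It occurred in 7 of the 11 promoters found for 7 of the 10 marker genes. Its form CAGCTG, also the same on both strands, was in 4 of these 11 promoters and in 16.3% of all, and CAGATG, searched on both strands, was in 5 of these 11 and in 17.2% of all. Of the 11, Elavl4 has 4 and Dcx 2 as alternative starts, some of which overlap. Matches are a description of letters, and the assay did not measure promoters.

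The marker genes are given as a description, without any test, since they chose the cells. Elavl4, another neuronal RNA-binding protein, had a UMI in 134 wild-type (85.4%) and 92 Usb1-null neurons (82.9%). Summed over the neurons of a library it made up 1058 CPM (counts-per-million, the share of all UMIs in those cells) in the wild-type and 708 CPM in Usb1-null, against 55.2 and 51.1 CPM in all other cells, of which 6.44% and 9.78% had a UMI. Elavl3 had a UMI in 120 (76.4%) and 74 neurons (66.7%), with 679 and 422 CPM. The pair of Elavl3 and Elavl4 was the most frequent, found together in 63.7% of wild-type and 55.9% of Usb1-null neurons. Tubb3 was detected in 94 and 60 neurons with 566 and 231 CPM, and the homeobox factor Onecut2 in 87 and 68 neurons with 524 and 351 CPM.

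Markers of axon growth and of the bHLH class were detected in fewer neurons. Stmn2 was found in 54 wild-type and 36 Usb1-null neurons and Gap43, a growth cone protein, in 46 and 44. Dcx, which stabilises microtubules in migrating neurons, was found in 50 of 157 wild-type but 15 of 111 Usb1-null neurons. Its levels were 197 CPM (149 to 256) and 55.0 CPM (34.1 to 84.1). Its log2 ratio of −1.75 was −0.98 with neurons chosen at 1000 UMIs and −0.85 with at least 5 markers. The part of depth and of the rule in it was not tested. On mm10 the Dcx gene spans chrX:143855842-143933311 on the minus strand and Tubb3 chr8:123411424-123422015 on the plus strand, according to GENCODE. Neurod1 was found in 25 and 20 neurons, Nhlh1 in 13 and 13, and Nhlh2 in 6 and 10. The neurons were 1.04% and 0.853% of the cells but held 53.3% and 38.9% of all Dcx UMIs, and 57.4% and 68.6% of all Neurod1 UMIs. Gap43 had the smallest share in neurons, with 6.67% and 3.89% of its UMIs.

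**Figure D1:**
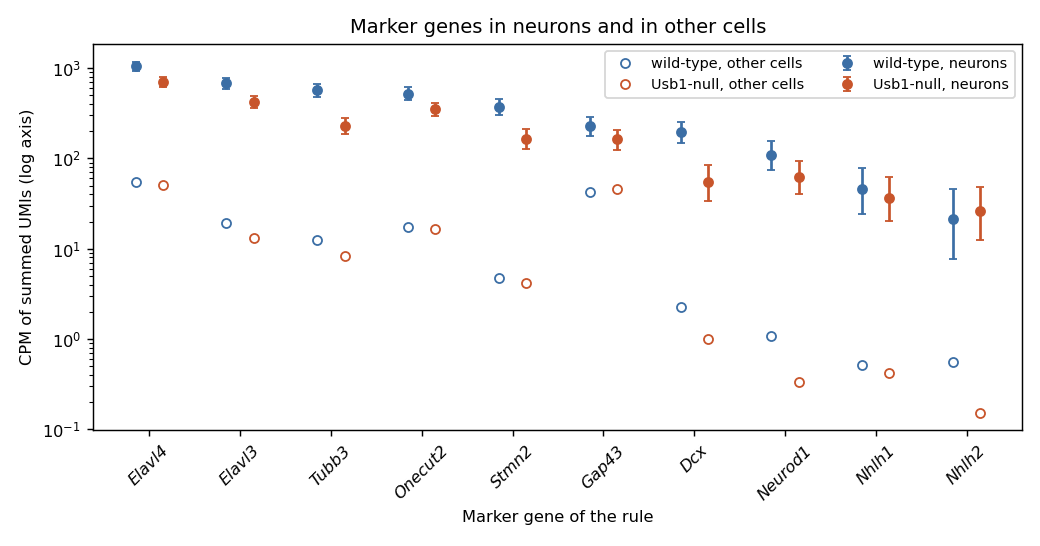
Summed level of the 10 marker genes (horizontal axis) in CPM on a log axis, in the selected neurons (filled, with 95% Poisson intervals) and in all other cells (open), for wild-type (blue) and Usb1-null (orange) libraries. Every marker stood above the other cells, because the rule used these genes. Tubb3, Stmn2 and Dcx showed the widest gaps between the libraries at the deposited depth, at which the Usb1-null neurons were the deeper.

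The rule counts markers, so a single UMI can carry a cell across its threshold. There were 68 wild-type and 58 Usb1-null cells with exactly 3 markers, against 274 and 441 with exactly 2. With the marker genes left out, the list of other neuronal transcription factors summed to 4141 CPM in wild-type against 2319 CPM in Usb1-null cells with 3 markers. It summed to 2751 and 1900 CPM in cells with 2. In Usb1-null cells the interval with 2 markers (1833 to 1969) included the level of cells with no marker (1964 CPM), whereas in wild-type cells it (2605 to 2902) lay above theirs (1977 CPM). At the far end, 45 wild-type and 28 Usb1-null neurons had 5 or more markers, and none had more than 8.

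The libraries, of 21751961 UMIs for wild-type and 33775852 for Usb1-null, differed in ways that bear on the rule. Median UMIs were 1431 in wild-type and 2814 in Usb1-null neurons (1242 and 2294 in other cells), and a deeper cell reaches 3 markers at a lower level of each. No deposited barcode held fewer than 500 UMIs, and 61 barcodes were shared by the libraries, of which 0 and 1 were neurons. Mitochondrial genes took a median of 0.543% of UMIs in wild-type and 0.158% in Usb1-null neurons. Xist had 723 UMIs in wild-type and 1 in Usb1-null neurons, the Y-linked Uty had 0 and 178, and Gm47283, annotated to the Y chromosome, had 802 and 332. Genotype, sex and size of the embryos, stage within the day and library therefore cannot be told apart. Usb1 itself had 3 UMIs in wild-type and 0 in Usb1-null neurons. The deletion lies at the first exons, while the assay reads the 3′ end. Whether RNA of the deleted gene remains there is not known, and so few UMIs do not check the label. Tut1, encoding the uridylyl transferase that acts before Usb1 on U6 RNA, had 9 and 11 UMIs.

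Not every selected cell looked like a neuron. Clustering of the 268 cells gave 5 sub-clusters, and the largest, sub-cluster 1 with 76 cells, was led by Myocd, Sox10 and Ttn, genes of smooth and cardiac muscle, neural crest and sarcomeres. Those leading genes had a UMI in 7, 12 and 12 of its cells. In sub-cluster 1, 7 of 10 endothelial, 5 of 10 erythroid, 5 of 10 neural crest and 4 of 10 cardiomyocyte markers were raised. No marker gene of the rule was raised there. Raised, here and below, means at least 5 UMIs and 2-fold or more over the other selected cells. The share of all genes that pass this was not counted, so counts of raised markers have no baseline. Doublet calls made up 15.9% of wild-type (25 of 157) and 6.31% of Usb1-null neurons (7 of 111), against 6.76% and 4.30% of all cells. Sub-cluster 1 held 32.9% doublet calls (25 of 76) and 30.3% cells with 3 markers of an unrelated class, and 4 wild-type and 1 Usb1-null of its cells had 5 or more rule markers. Its cells had a median of 2482 UMIs in wild-type against 3469 in Usb1-null. It was left unnamed. Values without it are given below for the lists and genes it touched most. The other sub-clusters, 120 wild-type and 72 Usb1-null cells together, held between 0 and 3 doublet calls each.

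A background of the rule was read in cells with markers of other classes, which are not known to lack the marker genes. It is not a rate of false calls. How many of these cells were doublets that hold a neuron was not tested. Of the epithelial markers, Krt8 was raised in sub-cluster 4 and Epcam in sub-cluster 5. Of cells with at least 3 erythroid, endothelial, cardiomyocyte, mesenchymal or epithelial markers, 20 of 3387 met the rule in the wild-type library (0.590%, 0.361 to 0.911) and 13 of 3577 in the Usb1-null (0.363%, 0.194 to 0.621), at median depths of 1515 and 2788 UMIs. These made up 12.7% of wild-type and 11.7% of Usb1-null neurons. Cells with at least 3 of 14 neural progenitor genes, by contrast, were 17.2% of the wild-type selection (27 cells, 11.6 to 24.0). In the Usb1-null selection they were 37.8% (42 cells, 28.8 to 47.5), intervals that do not overlap. With cells thinned to 1000 UMIs they were 6.25% and 8.11% (4 and 3 cells) and at 2000 UMIs 12.5% and 24.5% (4 and 13 cells), intervals that overlap at both depths, and their part in the lists below was not tested. The share in the whole library was above this background in both, with an overlap of the intervals in wild-type only. With at least 5 markers the background shares were 0.177% and 0.0559%, against 0.297% and 0.215% of all cells.

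The share of neurons in the Usb1-null library, relative to the wild-type, depended on depth. As deposited, the shares were 1.04% (0.881 to 1.21) in wild-type and 0.853% (0.702 to 1.03) in Usb1-null, a ratio of 0.823 (0.646 to 1.05), an interval that includes 1. With every cell thinned to 1000 UMIs, 64 of 10188 wild-type cells (0.628%) and 37 of 12406 Usb1-null cells (0.298%) met the rule, and the ratio was 0.475 (0.317 to 0.711). This leaves out 4973 shallower wild-type and 612 shallower Usb1-null cells. The ratio was 0.291 (0.155 to 0.548) at 500 UMIs and 0.528 (0.341 to 0.817) at 2000 UMIs. Without sub-cluster 1, an alternative chosen after the clusters had been seen, it was 0.699 (0.522 to 0.935) as deposited and 0.437 (0.287 to 0.666) at 1000 UMIs.

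In each UMI bin below 4500 UMIs the Usb1-null share of unthinned cells was also the lower. Of the bins with a ratio, only that from 3000 to 4500 UMIs had an interval that excluded 1 (0.293, 0.162 to 0.530). The ratio was 0.538 (0.263 to 1.10) from 1000 to 1500 UMIs and 0.542 (0.286 to 1.03) from 1500 to 2000. From 2000 to 3000 UMIs it was 0.706 (0.431 to 1.16). Between 1000 and 1500 UMIs 44 of 4842 wild-type cells (0.909%) and 9 of 1842 Usb1-null cells (0.489%) were neurons, and between 3000 and 4500 UMIs 18 of 549 (3.28%) and 26 of 2709 (0.960%). From 4500 UMIs up the shares were 2.22% and 2.21%, with only 3 wild-type neurons. From 500 to 750 UMIs there were 15 wild-type neurons and 0 among 269 Usb1-null cells (up to 1.36%), and from 750 to 1000 UMIs 24 and 0 among 343 (up to 1.07%). A rule of at least 2 markers, which adds the cells described above as just outside, turned the ratio to 1.49.

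**Figure D2:**
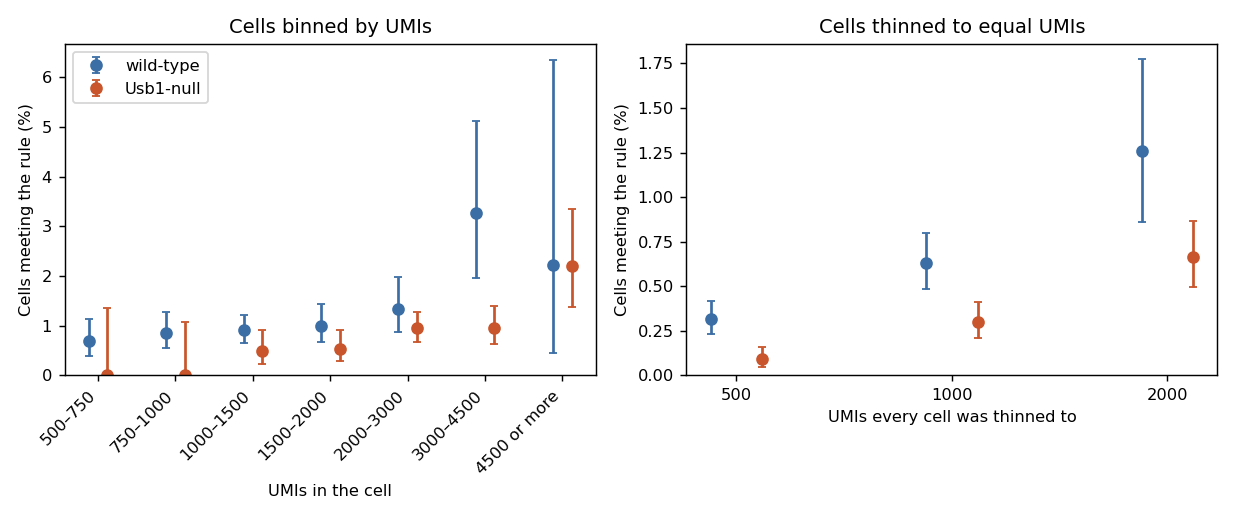
Share of cells meeting the neuron rule (percent, with exact 95% intervals) by UMIs in the cell (left) and after thinning every cell to 500, 1000 or 2000 UMIs (right), in wild-type (blue) and Usb1-null (orange) libraries. The Usb1-null share was the lower at each thinned depth, and in each UMI bin except the deepest, where the shares were 2.22% and 2.21%. The intervals of the libraries overlap in every bin but that from 3000 to 4500 UMIs.

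Genes outside the rule were then described in neurons against all other cells of the same library. Of 3465 genes with at least 50 UMIs in the neurons, 4.79% were 2-fold or more higher in neurons of both libraries and, of 4638 genes at 50 CPM or more in other cells, 1.1% were 2-fold or more lower. The minimum is counted in neurons and so favours genes that are high there, also for the lists below. Of the other pan-neuronal transcription factors, 6 of 10 counted were 2-fold or more higher, among them Ebf1, Ebf2 and Ebf3, which act after the proneural factors, and St18 and Myt1, zinc finger factors of newborn neurons. The Notch ligand and cell cycle exit list had 8 of 10, including the ligand Dll1, the ligand-like Dll3, the growth arrest gene Gadd45g and the antiproliferative gene Btg2. Neuronal RNA-binding proteins had 5 of 8, synaptic and vesicle genes 4 of 5, cytoskeleton and growth cone genes 5 of 12, and axon guidance genes 4 of 13. Neural progenitor cells were here the cells outside the neurons with at least 3 of 8 progenitor genes (543 wild-type and 889 Usb1-null). Against them, 4.42% of genes were 2-fold or more higher in neurons of both libraries.

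Of the genes with at least 100 UMIs in the neurons, from which the 20 furthest over other cells were named, St18 came first, at 531 CPM in wild-type neurons and 359 CPM in the Usb1-null, against 4.48 and 2.15 CPM in other cells. By the log2 ratio of neurons over other cells in the library where it was smaller, St18 reached 5.67. Srrm4 reached 4.31, with a UMI in 137 of 157 wild-type and 73 of 111 Usb1-null neurons, and so was detected in more wild-type neurons than any marker of the rule. Srrm4 stood at 1554 CPM in wild-type neurons and 896 CPM in the Usb1-null, against 56.4 and 40.5 CPM elsewhere. Its promoter, shown above, held 1 E-box, a CAGATG. Of the 20 promoters found for 15 of the 20 named genes, 14 held CANNTG and 3 CAGATG, against 72.3% and 17.2% of all promoters.

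The other genes of this group have a few known roles. Adhesion and surface genes were Thsd7b (5.46), Nfasc (3.66), which clusters channels on axons, the cadherin Cdh12 (3.59) and the proteoglycan Spock1 (2.86). Clvs1, for endosomal trafficking in neurons, reached 5.31, the microtubule protein Map2 3.30 and the reticulon Rtn1 2.94. The glutamate transporter gene Slc1a2 reached 3.03 and Gadd45g 3.05. Isl1, the LIM homeobox factor of motor and sensory neurons, reached 2.83, and the long noncoding RNA Miat 3.22. Gm26871 (5.41), Gm6999 (4.23), Btbd17 (4.06), Rhbdl3 (3.49), Igfbpl1 (2.98), Trp53i11 (2.73) and Myo16, a myosin of neurons with 121 and 138 UMIs, complete the 20. Below that minimum Myt1, with 80 UMIs, reached 4.12.

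Between genotypes, genes of neuronal structure were at lower levels in Usb1-null neurons. Of 3465 genes counted, 62 (1.79%) were 2-fold or more higher and 60 (1.73%) 2-fold or more lower in Usb1-null neurons, and the median log2 ratio over all of them was 0.05. The lists are described from here on with the marker genes of the rule left out, since those chose the cells. In the cytoskeleton and growth cone list 11 of 12 genes counted were lower, with a median log2 ratio of −0.65 against −0.11 in other cells, and 1 of them, Basp1, a growth cone membrane protein, was past 2-fold at −1.03. Summed, the list was at 4768 CPM (4518 to 5029) in wild-type neurons but at 3116 CPM (2941 to 3298) in Usb1-null, intervals that do not overlap. All 5 synaptic and vesicle genes counted were lower, 2 of them 2-fold or more, with a median of −0.63 against 0.01 in other cells. These were Snap25 (162 and 70.8 CPM), a fusion protein of vesicles, and Syt1 (162 and 60.3 CPM), their calcium sensor.

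Several of these ratios were nearer 0 when the neurons were chosen at equal depth. With neurons chosen at 1000 UMIs, the median log2 ratio was −0.63 for the cytoskeleton list, and it went from −0.63 to −0.71 for the synaptic list. It came to −0.17 from −0.53 for RNA-binding proteins (−0.29 without sub-cluster 1) and to −0.20 from −0.52 for other neuronal transcription factors. St18 came to −0.02 from −0.56. Basp1, at −0.78, and Snap25, at −0.71 from −1.14, were then short of 2-fold. Without sub-cluster 1 the cytoskeleton median was −0.74 and without sub-cluster 4 it was −0.38. With at least 5 markers the median of other neuronal transcription factors turned to 0.06 and St18 to 0.31. The part of depth and of cell mixture in these ratios was not tested.

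Within the RNA-binding list the ratios differed from gene to gene. Elavl2, another Elav-like gene of neurons, had 816 CPM in wild-type against 356 CPM in Usb1-null neurons, a ratio of 0.437 (0.351 to 0.542), while its log2 ratio in other cells was 0.24. Nova2, a neuronal splicing factor, had 169 and 76.0 CPM, and its log2 ratio of −1.10 was −0.78 with neurons chosen at 1000 UMIs, where that of Elavl2 was −1.08. Rbfox2, a splicing factor of many tissues, had 651 and 749 CPM, and its log2 ratio of 0.20 was the same as in other cells.

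Among axon guidance genes the netrin receptor gene Dcc was the one past 2-fold, with 1506 UMIs at 5296 CPM in wild-type and 938 UMIs at 2458 CPM in Usb1-null neurons. The Slit receptor genes gave 2602 and 2773 CPM for Robo2 and 1484 and 993 CPM for Robo1. With neurons chosen at 1000 UMIs the log2 ratio of Dcc came to −0.56 from −1.11, short of 2-fold, while that of Robo1 went to −1.39 from −0.58. The median over 13 genes was −0.22. Gfra1, a receptor for the GDNF family, was the only neurotrophic receptor with 50 UMIs and had 271 and 110 CPM, a log2 ratio of −1.26 against 0.16 in other cells. In 1000-UMI selected neurons any of 8 neurotrophic receptor genes was seen in 35 of 64 neurons (54.7%, 41.7 to 67.2) of the wild-type library and in 10 of 37 (27.0%, 13.8 to 44.1) of the Usb1-null, intervals that overlap.

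**Figure D3:**
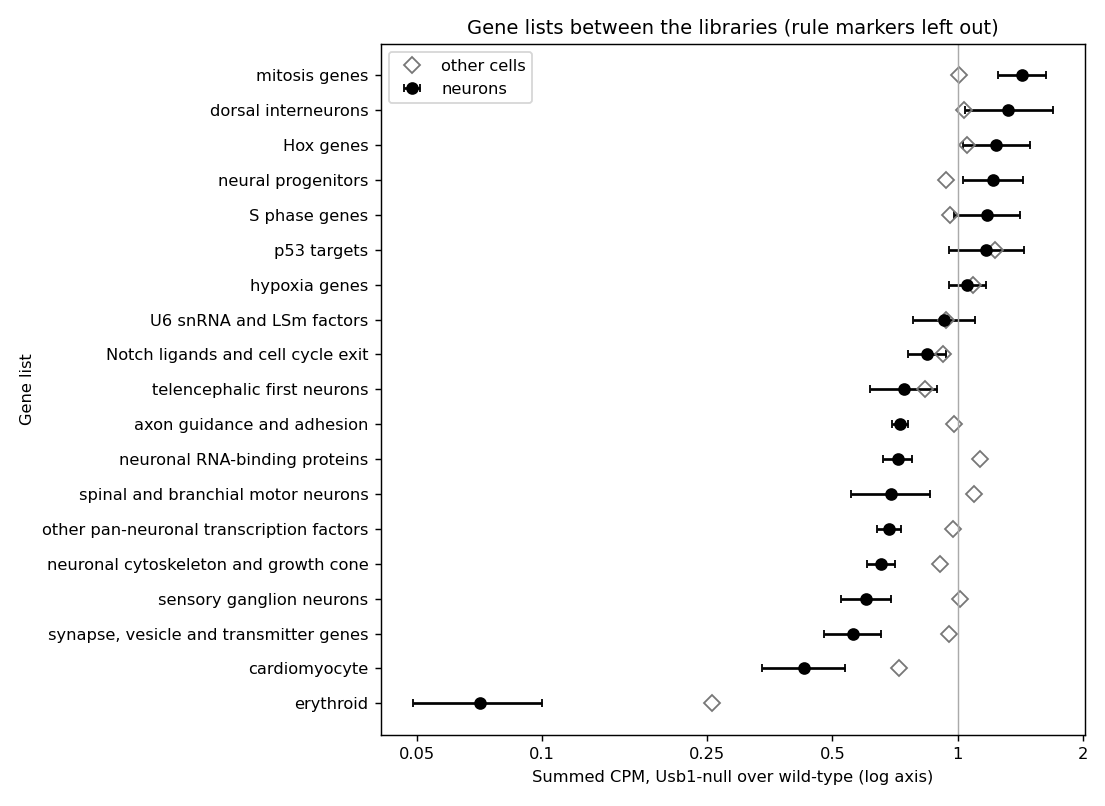
Ratio of summed CPM, Usb1-null over wild-type, on a log axis, for gene lists with at least 300 UMIs in the neurons, marker genes of the rule left out; circles are neurons with 95% counting intervals and diamonds all other cells. Lists of neuronal structure lay to the left of 1 in neurons but near 1 in other cells, the mitosis and progenitor lists lay to the right, and the erythroid list was lowest in both.

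Mitosis genes lay the other way. In Usb1-null neurons all 5 mitosis genes counted were higher, 1 of them 2-fold or more, with a median log2 ratio of 0.87 against 0.03 in other cells. Mki67, a mark of cycling cells, had 197 CPM in wild-type against 367 CPM in Usb1-null neurons, a log2 ratio of 0.88, and was also the higher in other Usb1-null cells, at 272 against 391 CPM (0.51). Cenpe, a kinetochore motor, had 70.3 and 170 CPM, and in other cells 191 and 195 CPM. Summed, the mitosis list came to 1217 CPM (1092 to 1352) against 1735 CPM (1605 to 1872), intervals that do not overlap, and other cells stood above both at 1916 and 1928 CPM. Neural progenitor genes summed to 823 CPM (721 to 935) and 1001 CPM (903 to 1107), intervals that overlap, with a median of 0.29 over the 4 counted, 3 higher and 1 lower. Sox2, a progenitor factor, had 66.8 and 99.6 CPM and Rfx4, a factor of the neural tube, 246 and 349 CPM, while the eye and neural tube factor Pax6 had 98.5 and 105 CPM and the receptor Notch1 144 and 128 CPM. The 4 S phase genes counted had a median of 0.17, which was 0.07 with neurons chosen at 1000 UMIs and −0.05 without sub-cluster 1, so they had no steady direction. With neurons chosen at 1000 UMIs the other medians were 0.64 for mitosis and 0.49 for progenitor genes, and without sub-cluster 1 they were 0.87 and 0.27.

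Along the number of markers the cytoskeleton and synaptic lists rose, while the progenitor and mitosis lists rose first and fell at higher numbers. In wild-type cells the cytoskeleton list, without marker genes, went from 1469 CPM with no marker to 3029 CPM with 3 and 7619 CPM with 5 or more (7022 to 8254). In Usb1-null cells it went from 1354 to 2114 and 4934 CPM (4491 to 5409), so it was also the lower in cells with no marker, where the intervals (1340 to 1370 against 1451 to 1487) do not overlap. The synaptic list was at 292 and 286 CPM with no marker, at 335 and 295 CPM with 1, and reached 2273 CPM (1952 to 2632) and 1269 CPM (1049 to 1520) with 5 or more markers. Progenitor genes were at their highest with 2 markers in wild-type (1126 CPM) and with 3 in Usb1-null cells (1177 CPM), and with 5 or more they were at 394 CPM (267 to 559) and 683 CPM (525 to 874). Mitosis genes were at 1893 and 1891 CPM with no marker. With 3 markers they were at 1411 CPM (1215 to 1630) in wild-type against 2079 CPM (1884 to 2289) in Usb1-null cells. With 5 or more they were at 1041 and 1312 CPM, where the intervals overlap. A Usb1-null cell with a given number of markers is the deeper cell, and the part of depth in this offset was not tested.

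**Figure D4:**
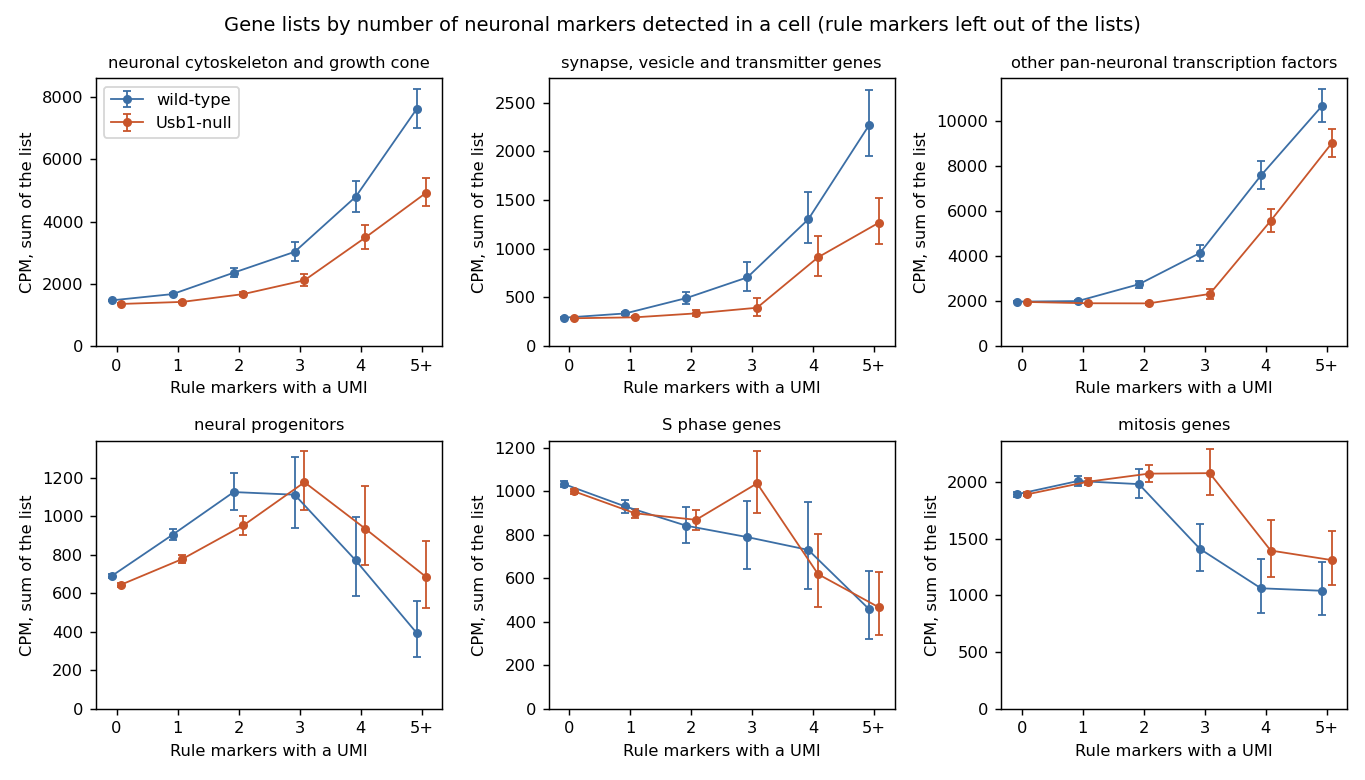
Summed CPM of 6 gene lists, marker genes left out, by the number of rule markers with a UMI in a cell (0 to 5 or more), with 95% Poisson intervals, in wild-type (blue) and Usb1-null (orange) libraries. Neuronal lists climb and progenitor, S phase and mitosis lists decline at high marker numbers in both libraries, with the Usb1-null cytoskeleton list below the wild-type at every number of markers, 0 included, and the synaptic list likewise (292 against 286 CPM with no marker, where the intervals overlap).

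The factors that start neuronal differentiation showed no common direction. The 10 proneural and neuronal bHLH factors outside the rule had 47 UMIs (165 CPM, 121 to 220) in wild-type against 75 UMIs (197 CPM, 155 to 246) in Usb1-null neurons, intervals that overlap. In neurons chosen at 1000 UMIs, any of the 10 had a UMI in 17.2% (8.90 to 28.7) and 24.3% (11.8 to 41.2), against 1.67% and 1.54% of other cells. Neurog2, a proneural factor, had 7 and 20 UMIs, Neurog1 had 15 and 10, and Neurod4 had 20 and 31. Notch ligands and exit genes had a median of −0.22, which was −0.07 with neurons chosen at 1000 UMIs and −0.06 without sub-cluster 1. It turned to 0.03 with at least 5 markers. Dll1 was at 165 and 210 CPM and Dll3 at 162 and 105 CPM. Among other neuronal factors, Ebf1 had 2563 CPM in wild-type against 1491 CPM in Usb1-null neurons, while its log2 ratio in other cells was 0.11.

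Neuronal subtypes were read from the sub-clusters, whose defining genes come from the clustering and are given as a description. Sub-cluster 3 (58 cells) was led by Cdh12, Tmem163 and Dlgap2, and 6 motor neuron markers were raised in it, among them Isl1, Phox2a, Tbx20, Slc18a3 and Chat. The last pair load and make acetylcholine. It was called motor neuron-like from 6 of 11 listed markers and held 21.0% of wild-type (33 cells) and 22.5% of Usb1-null neurons (25 cells). The ventral interneuron markers Gata2 and Nkx2-2 and the dorsal marker Lmx1b were raised in it too. Another motor marker, Lhx4, was raised in sub-cluster 2. Sub-cluster 5 (26 cells) was led by Kcnmb2, Slc24a2 and Neurod1 and had 5 of 14 sensory ganglion markers raised, among them Eya1, Eya2 and Neurog1. It was called sensory ganglion-like and held 10.8% (17 cells) and 8.11% (9 cells). Sub-cluster 2 (75 cells), led by Gm6999, Glra1 and Rhbdl3, kept raised progenitor genes (Sox2, Pax6, Hes5, Notch1 and Rfx4) beside Nhlh1 and Nhlh2, and held 28.0% and 27.9% of the neurons. Sub-cluster 1 held 23.6% (17.2 to 31.0) and 35.1% (26.3 to 44.8).

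Sub-cluster 4 had the lowest ratio of Usb1-null to wild-type share of the 5. It held 26 wild-type neurons (16.6%, 11.1 to 23.3) and 7 Usb1-null neurons (6.31%, 2.57 to 12.6), of which 13 and 2 had 5 or more markers, and the intervals overlap. Its leading genes were Nav3, Csmd2 and March1, and raised in it were the midbrain factors Otx2, En1 and En2 together with Pou4f1, Tlx3, Lmx1b, Neurog1, Ntrk3 and Tfap2b. The sensory, dorsal and midbrain lists thus shared it and it was not named. As a share of all cells it was 0.171% (0.112 to 0.251) and 0.0538% (0.0216 to 0.111), a ratio of 0.314 (0.136 to 0.722), and with cells chosen at 1000 UMIs 15 and 4 cells remained, a ratio of 0.219 (0.0727 to 0.660). Clustering again without the 122 genes past 2-fold between the libraries, tried after the first clusters had been seen, gave 27 and 7 cells (17.2% and 6.31%). Of the other sub-clusters at 1000 UMIs, sub-cluster 2 had 21 and 11 cells (ratio 0.430, 0.208 to 0.892), sub-cluster 3 had 20 and 15 (0.616, 0.316 to 1.20), sub-cluster 5 had 6 and 3 (0.411, 0.103 to 1.64) and sub-cluster 1 had 2 and 4. With sub-cluster 4 left out of the count, the ratio of neuron shares was 0.925 in place of 0.823 as deposited, and at 1000 UMIs it was 0.553 (0.356 to 0.859) in place of 0.475.

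**Figure D5:**
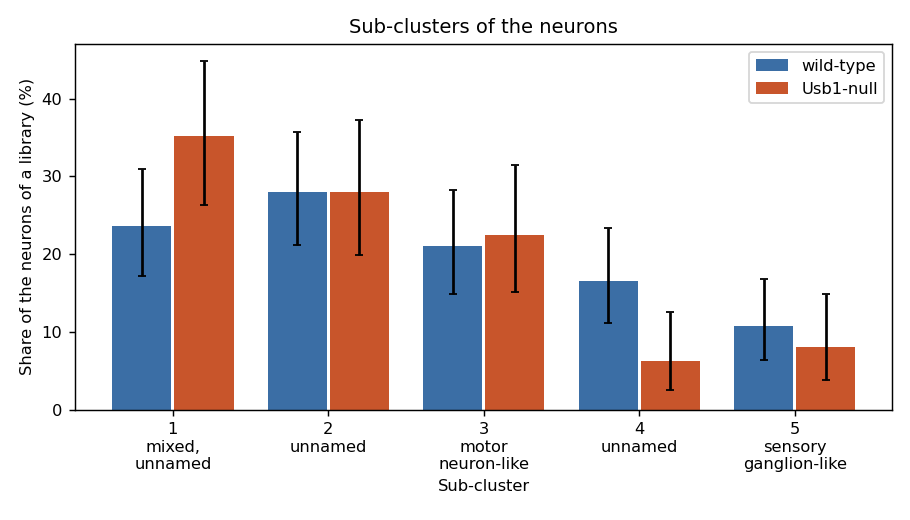
Share of the selected neurons of each library (percent, bars from 0, with exact 95% intervals) in 5 sub-clusters, wild-type in blue and Usb1-null in orange. Sub-cluster 4 held 16.6% and 6.31%, the mixed sub-cluster 1 held 23.6% and 35.1%, and the intervals of the libraries overlap in each sub-cluster.

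Position along the body axis was read from regional factors. A Hox UMI without a forebrain or midbrain factor was found in 45.2% (37.3 to 53.4) of wild-type neurons and in 58.6% (48.8 to 67.8) of the Usb1-null, against 38.7% and 48.3% of other cells. A forebrain or midbrain factor alone was found in 17.2% (11.6 to 24.0) and 8.11% (3.77 to 14.8), against 8.20% and 9.48%. With neurons chosen at 1000 UMIs, any Hox gene was seen in 45.3% (32.8 to 58.3) and 51.4% (34.4 to 68.1), and any forebrain or midbrain factor in 18.8% (10.1 to 30.5) and 10.8% (3.03 to 25.4), intervals that overlap. Pou4f1, a factor of sensory neurons, was found in 8.92% and 2.70% of the neurons, and Lhx4, of early motor neurons, in 8.92% and 1.80%. In other cells Pou4f1 had a UMI in 0.440% and 0.690%, and Lhx4 in 0.133% and 0.248%. Lmx1b, of dorsal interneurons, was found in more Usb1-null neurons, 7.01% and 17.1%, against 4.25% and 6.18% of other cells. Tbx20 was found in 13.4% and 17.1% (4.89% and 7.41% of other cells) and Isl1 in 31.8% and 30.6% (2.54% and 4.04%). Foxp2 was in 19.7% and 40.5% of neurons but in 33.1% and 45.5% of other cells, so it was not more frequent in neurons. These are values of the deposited depth, at which the Usb1-null neurons are the deeper.

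The genes of the sensory list, over all neurons, summed to 1653 CPM (1507 to 1809) in wild-type but 996 CPM (898 to 1101) in Usb1-null. All 5 of its genes counted were lower and 1 of them past 2-fold, Eya2, a transcriptional coactivator in placodes, with 134 and 83 UMIs. Its log2 ratio of −1.10 was −0.63 with neurons chosen at 1000 UMIs and −0.68 with at least 5 markers, short of 2-fold in both. With neurons chosen at 1000 UMIs the median of these 5 genes was −0.14 in place of −0.60, and any gene of the list was seen in 73.4% and 70.3% of neurons. Motor neuron genes summed to 619 CPM (531 to 717) against 427 CPM (364 to 498). Their lists also share Isl1. Genes of the dorsal interneuron list, of which Foxp2 alone reached 50 UMIs, were at 380 CPM (312 to 459) against 503 CPM (435 to 580), below other cells (568 and 590 CPM) in both libraries. Hox genes were at 654 CPM (563 to 755) against 810 CPM (722 to 905), with 710 and 749 CPM in other cells, and the ratio of 1.24 turned to 0.872 with neurons chosen at 1000 UMIs but was 2.21 with at least 5 markers and 1.32 without sub-cluster 1.

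Single genes past 2-fold, the furthest among those with at least 100 UMIs, could be placed in sub-clusters. Nav3, a microtubule-binding guidance protein, had 282 UMIs (992 CPM) in wild-type and 93 UMIs (244 CPM) in Usb1-null neurons. Of these, 218 and 72 UMIs were in sub-cluster 4, and there it reached 5607 CPM (4887 to 6403) and 4199 CPM (3285 to 5288), intervals that overlap. Another 51 wild-type UMIs were in 4 cells of sub-cluster 1. With sub-cluster 4 left out, the log2 ratio of Nav3 was −2.08, and over all neurons its ratio was 0.246 (0.192 to 0.312). Ntm, an adhesion protein, had 77 and 36 UMIs, 45 and 1 of them in sub-cluster 4, and its log2 ratio of −1.47 came to −0.42 without that sub-cluster.

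Kirrel3, an adhesion protein of the immunoglobulin family, had 112 UMIs (394 CPM) in wild-type and 26 UMIs (68.1 CPM) in Usb1-null neurons, a ratio of 0.173 (0.108 to 0.267), with a log2 ratio of −0.32 in other cells. In sub-cluster 2 it had 74 UMIs in 20 of 44 wild-type cells and 12 UMIs in 4 of 31 Usb1-null cells. Its log2 ratio lay between −2.98 and −2.36 under every alternative run. Crabp1, a retinoic acid-binding protein, had 118 and 59 UMIs at 415 and 155 CPM.

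Ptch1, the Hedgehog receptor and a target of that pathway, had 110 UMIs (387 CPM) in wild-type and 317 UMIs (831 CPM) in Usb1-null neurons, a ratio of 2.15 (1.72 to 2.69), with a log2 ratio of 0.34 in other cells. It was the higher in Usb1-null cells of sub-cluster 2 at 1348 CPM (1106 to 1628) against 446 CPM (294 to 649), and in sub-cluster 3 at 965 CPM (752 to 1219) against 403 CPM (243 to 630). In neurons chosen at 1000 UMIs its log2 ratio was 1.20, and with at least 5 markers 2.38. Cacnb2, a calcium channel subunit, and Pcdh7, a protocadherin, had log2 ratios of 1.39 and 1.27. Most of their Usb1-null UMIs, 98 of 123 and 91 of 113, were in the mixed sub-cluster 1, and without it the log2 ratios were 0.54 and 1.20. With neurons chosen at 1000 UMIs they were 0.50 and 1.21.

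The other large ratios were shared with the rest of the embryo. AY036118 (log2 ratio 2.60 in neurons and 2.35 in other cells), Gm42418 (2.22 and 2.22), Lars2 (2.31 and 2.02), Cmss1 (1.76 and 1.67) and Gphn (1.12 and 1.06) were higher in Usb1-null cells of both kinds. AY036118 and Gm42418 are loci known to take up ribosomal RNA reads. The mitochondrial genes mt-Nd4 (−1.56 and −1.19), mt-Atp6 (−1.49 and −1.36) and mt-Co3 (−1.45 and −1.31) were lower in both. Globin UMIs also lay in the selected cells, with Hbb-y at 209 UMIs in wild-type and 9 in Usb1-null neurons, 173 of the former in 10 cells of sub-cluster 1. The erythroid list was at 1329 CPM (1199 to 1470) and 94.3 CPM (66.1 to 131) in neurons and at 879 and 226 CPM in other cells. Its ratio of 0.0710 was 0.211 without sub-cluster 1 and 0.311 with neurons chosen at 1000 UMIs, and its part in the neuronal ratios was not tested.

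Marker lists of other classes and of stress were summed over all their genes. Cardiomyocyte markers summed to 742 CPM in wild-type against 317 CPM in Usb1-null neurons, endothelial to 232 and 115 (a ratio of 0.497), mesenchymal to 207 and 225, epithelial and endodermal to 172 and 123, and neural crest and glial to 355 and 309. The endothelial ratio was 0.991 with neurons chosen at 1000 UMIs and turned to 2.36 without sub-cluster 1, and the cardiomyocyte ratio of 0.427 was 0.151 and 0.244. The neural crest and glial ratio of 0.871 was 0.646 with neurons chosen at 1000 UMIs and 0.152 with at least 5 markers. Hypoxia genes summed to 2149 CPM (1982 to 2326) and 2270 CPM (2121 to 2426) and p53 targets to 534 CPM (453 to 627) and 626 CPM (549 to 711), intervals that overlap. Dissociation and immediate early genes summed to 552 CPM (469 to 645) in wild-type against 335 CPM (280 to 399) in Usb1-null neurons, intervals that do not overlap, and to 515 and 442 CPM in other cells. Their part in the neuronal ratios was not tested. The list of U6 RNA and LSm factors, the proteins that bind the substrate of Usb1, summed to 872 CPM (767 to 988) and 810 CPM (722 to 905). Neuroendocrine genes of gut and pancreas were present through Isl1, and 8 of the 10 listed had no UMI in these cells.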

How the data were processed

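Embryos at embryonic day 9.5 were dissociated and single cells were barcoded with 10x Genomics 3′ v3.1 chemistry, 1 library per genotype; the labels name the molecule as nuclear RNA, although the protocol describes cells. The authors deposited filtered matrices of raw UMI counts per gene and cell, aligned to mm10 with Cell Ranger; the submitters' processing notes give version 2.1.1 and the file headers 6.1.2. The cells, marker genes and 30 gene lists were chosen with earlier results of these data known. Counts of the neurons were summed per library and divided by their total (CPM), and log2 ratios were taken after adding 5 CPM to both sides. Genes needed 50 UMIs in the neurons, a minimum that favours genes high in them. A ratio of 2-fold was the size rule for naming genes: among genes with at least 100 UMIs, the 20 standing furthest over other cells in both libraries and the 8 furthest in each direction between genotypes (sex-linked genes aside), and listed genes with 50. Doublets were marked, not removed, with Scrublet in scanpy 1.11.5 (expected rate 0.1). Sub-clusters came from Leiden clustering (leidenalg 0.10.2, resolution 0.6, 1000 variable genes, 15 components, genes centred per library). Intervals are exact Poisson or binomial ones at 95% (scipy 1.17.1). Alternatives were other marker numbers, depths, gene minimums, added CPM and clusterings. Scripts were tested on simulated counts. No replicate library existed, so no test was run. Results for some genes are not reported here.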

Additional observations from a re-analysis of the deposited data

How the results depend on the processing

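With 1 library per group no replicate could be left out. No paired analysis was possible because there was 1 library per genotype. The cause of each change below was not tested. The share of wild-type and Usb1-null cells meeting the rule was 2.84% and 4.24% (ratio 1.49) with at least 2 markers, 0.587% and 0.407% with at least 4, and 0.297% and 0.215% with at least 5. It was 0.317% and 0.0922% (0.291) with cells thinned to 500 UMIs, 0.628% and 0.298% (0.475) at 1000, 1.26% and 0.664% (0.528) at 2000, and 1.32% and 0.624% (0.472) weighted to the pooled UMI bins. Leaving out a marker gave 0.712% and 0.615% for Elavl3, 0.712% and 0.522% for Elavl4, 0.805% and 0.653% for Tubb3, 0.844% and 0.607% for Onecut2, and 0.691% of Usb1-null cells for Gap43. Leaving out cells of other classes gave 1.04% in Usb1-null. Where only 1 library is given, the other stayed within its deposited interval (0.881 to 1.21 in wild-type, 0.702 to 1.03 in Usb1-null). Of alternatives chosen after seeing the data, leaving out sub-cluster 1, 2 or 3 gave 0.792% and 0.553%, 0.745% and 0.615%, or 0.818% and 0.661%, and leaving out sub-cluster 4 gave 0.864% in wild-type.

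The genes 2-fold or more higher and lower in Usb1-null neurons numbered 270 and 235 with neurons chosen at 1000 UMIs, 344 and 281 with at least 5 markers, 225 and 233 with a minimum of 20 UMIs per gene, 12 and 31 with 100, 1587 and 1208 with 1, and 131 and 128 without sub-cluster 1. With equal weight per cell 101 were higher, and with doublet calls removed 115. The lower counts in these settings moved less and are not given. In the main setting 62 higher (1.79%) and 60 lower (1.73%) of 3465 genes were counted. Alternative choices and weights of cells were counted over the same 3465 genes. Each gene minimum counts another number of genes, so its counts cannot be set beside the others. Fewer cells and lower minimums put more genes at few UMIs. Of 153 list medians under an alternative (lists with at least 3 genes counted, with and without marker genes) 9 had the other sign, in 5 of 14 medians, and of 368 values of named genes 22 did, in 12 of 46 genes. Among lists whose counting interval excluded no change, these were other neuronal transcription factors (0.0195, and 0.0553 with marker genes left out) and Notch ligands (0.0336), with at least 5 markers. Among such genes they were Thsd7b (0.0615) and Gm26871 (0.0222) with neurons chosen at 1000 UMIs, and St18 (0.306) with at least 5 markers. The others include S phase genes (0.17, and −0.05 without sub-cluster 1), hypoxia genes (−0.10, and 0.15 at 1000 UMIs) and Rhbdl3 (−0.40, and 0.86 with at least 5 markers). The description of lists without marker genes was chosen after seeing the data.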
